A study of Mus musculus with 6 samples.

Results

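The interferon-inducible GTPases of mice fall into immunity-related GTPases (IRG) and guanylate-binding proteins (GBP). Described here are 9 of their genes, out of 17447 gene rows in a table of raw RNA-seq counts from mouse hearts. They are Igtp, Irgm1, Irgm2, Iigp1, Gm12250, Gm4841 and F830016B08Rik of the IRG family, and Gbp2 and Gbp3 of the GBP family. The 9 genes were picked because they were among the most variable in the hearts of sham-operated mice, so their differences between those hearts are a description and were given no test. All 9 rows were found, and all had counts in each of the 3 sham hearts.

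The study sequenced total RNA of whole hearts from wild-type mice, 3 with chronic kidney disease (CKD) and 3 sham-operated. CKD followed surgical removal of most renal tissue in 2 operations, and the sham mice were anaesthetised and opened without losing renal tissue. All 6 libraries carry the label Batch1, while strain, sex, age and time of sampling are not stated in the sources. The labels number the hearts but do not state whether each came from a different mouse.

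The CKD columns were checked first, because their row labels do not match their values. Spearman correlations across rows were 0.984 to 0.987 between CKD columns, 0.982 to 0.985 between sham columns, and -0.0586 to -0.0528 between a CKD and a sham column. Myh6, which encodes the chief myosin heavy chain of the adult mouse heart, held 0, 0 and 1 counts in the CKD columns and 362529, 443278 and 474768 in the sham columns. Irgm2 held 0, 1 and 1 counts in the CKD columns, against 448, 308 and 4951 in sham. CKD values were therefore not read as levels of these genes, and all results below concern the sham hearts. The sham columns held 10474487 to 12669724 counts. Levels are given as CPM, the counts scaled to a column total of 1000000, and a row at 0 allows up to 0.237 to 0.286 CPM, for counting error only. The 10 cardiomyocyte markers were present in all 3 hearts, with a summed level of 109380 to 121228 CPM.

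RefSeq (assembly GRCm38.p6, used for names and gene order) matched all 9 symbols and put them on 3 chromosomes. Gm12250, Igtp and Irgm2 follow each other on chromosome 11 with 0 coding genes between them, and Irgm1 lies apart on the same chromosome. Gm4841, F830016B08Rik and Iigp1 follow each other on chromosome 18, next to Gm4951. Gbp3 and Gbp2 lie on chromosome 3 with Gbp2b between them and Gbp7 and Gbp5 beside them. Such neighbours are paralogs with similar sequence, and how shared reads were counted is not stated in the sources, so the split of counts within a cluster is uncertain.

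In mice, IRG and GBP genes are switched on mainly by interferon-gamma and also by type I interferons, and interferon regulatory factors (IRF) take part in that control. IRG and GBP proteins bind and hydrolyse GTP and gather on membranes around intracellular pathogens such as Toxoplasma, where they help to break the vacuole. The GMS subclass (Irgm1, Irgm2 and Igtp, also called Irgm3) carries a methionine in place of the usual lysine of the nucleotide-binding loop and holds the effector IRG proteins in check on the cell's own membranes. Iigp1 (Irga6) and Gm12250 (Irgb10) are effector proteins that coat the vacuole or bacterial membrane. Gm4841 and F830016B08Rik are listed by RefSeq as Ifgga3 and Ifgga4, and no role is stated for them here. Gbp2 is a GBP that reaches the vacuole membrane through a lipid anchor, and Gbp3 is its neighbour in the same cluster.

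Promoters were available from RefSeq for 6 of the 9 members (Igtp, Irgm1, Irgm2, Gm12250, Gbp2 and Gbp3). They are shown for the interferon motifs they hold, which the choice by variation did not use. The genes are grouped as interferon-inducible, so the share of such motifs among them is not independent of that grouping. Each line gives the 100 bases before an annotated start, 5′ to 3′ on the strand of the gene. Capitals mark matches to the core of the interferon-stimulated response element (ISRE; GAAA-NN-GAAA or, on the other strand, TTTC-NN-TTTC, where N is any base), which IRF proteins bind, or of the gamma-activated site (GAS; TTCNNNGAA, the same on both strands). The windows, on build GRCm38.p6, are chr11:58199456-58199555 (+) for Igtp, chr11:58214877-58214976 (+) for Irgm2, chr11:48871421-48871520 (-) for Irgm1, chr11:58183743-58183842 (+) for Gm12250, chr3:142620563-142620662 (+) for Gbp2 and chr3:142559944-142560043 (+) for Gbp3.
Igtp: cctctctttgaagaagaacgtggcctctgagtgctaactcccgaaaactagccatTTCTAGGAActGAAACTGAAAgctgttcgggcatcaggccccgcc
Irgm2: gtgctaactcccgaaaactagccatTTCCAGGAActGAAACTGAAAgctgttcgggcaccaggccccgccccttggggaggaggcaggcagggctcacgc
Irgm1: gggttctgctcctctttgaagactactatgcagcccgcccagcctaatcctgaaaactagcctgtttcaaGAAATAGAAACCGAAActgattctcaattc
Gm12250: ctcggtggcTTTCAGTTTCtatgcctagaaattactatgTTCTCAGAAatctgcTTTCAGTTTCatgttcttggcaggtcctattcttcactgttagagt
Gbp2: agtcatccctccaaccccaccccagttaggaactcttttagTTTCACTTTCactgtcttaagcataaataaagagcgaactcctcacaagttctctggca
Gbp3: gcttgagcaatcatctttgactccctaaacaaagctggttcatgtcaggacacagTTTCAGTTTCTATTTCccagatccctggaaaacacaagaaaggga

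An ISRE core was found in all 6 members with a promoter, in 6 of their 7 annotated windows of 300 bases (250 before the start and 50 after). It was found in 1131 of the 32851 windows of the whole table, or 3.44%. The window without a match belongs to a second annotated start of Gbp3. The matches lay between 91 and 15 bases before the start. Irgm1 and Gbp3 each held a pair of ISRE cores that overlap each other, Gm12250 held 2 that do not, and the other 3 promoters held 1.

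A GAS core was found in 3 of the 7 member windows, those of Igtp, Irgm2 and Gm12250, against 8.30% of all windows. Both cores together were in the same 3 windows, against 0.454% of all. In Igtp and Irgm2 the ISRE core began 11 bases after the start of the GAS core, and in Gm12250 the nearer of its ISRE cores began 15 bases after. The same distance of 11 bases was found in Tgtp1 and Tgtp2, IRG genes that are no members. Of 6 other IRG and GBP genes with a promoter in the table, 5 held an ISRE core and 4 a GAS core, and Irgq held neither. Before the start, the longest run of identical bases shared by Igtp and Irgm2 was 55 bases, against 7 to 13 for every other pair of the 6 members. A match is a run of letters, and binding was not measured.

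**Figure D1:**
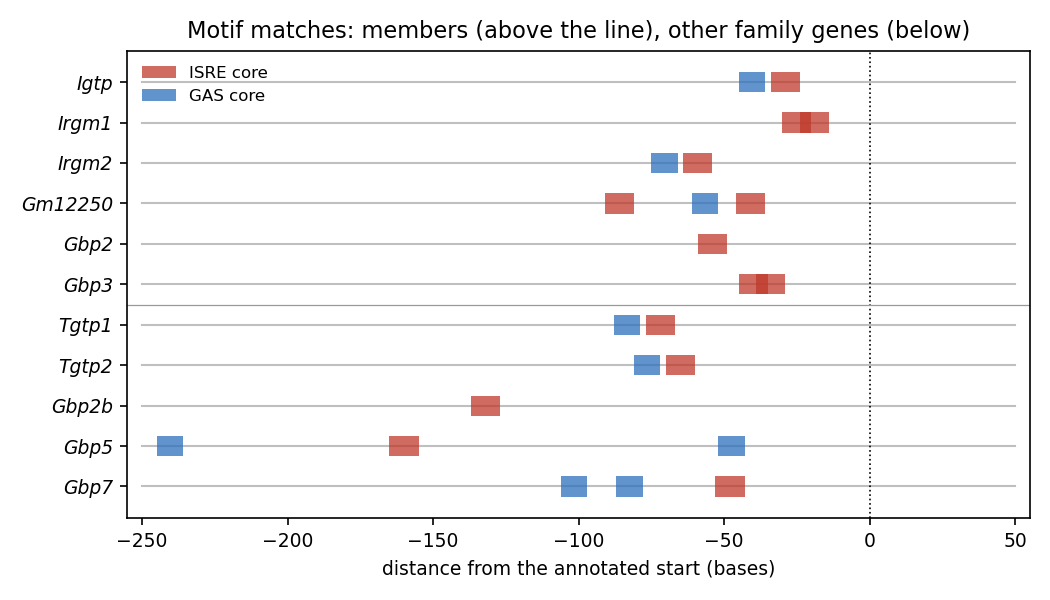
Positions of ISRE core (red) and GAS core (blue) matches relative to the annotated start (dotted line, in bases) in the first annotated window of 6 members (above the line) and of 5 other IRG and GBP genes with a match (below). All member matches lie within 91 bases before the start, and the GAS to ISRE spacing is the same in Igtp, Irgm2, Tgtp1 and Tgtp2.

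The 9 members stood far higher in sham 3 than in sham 1 or sham 2. Their counts summed to 31932 in sham 3, against 2570 in sham 1 and 1727 in sham 2, which is 2520, 245 and 165 CPM. The sum in sham 3 was 10.3 times that in sham 1 (95% exact interval 9.87 to 10.7) and 15.3 times that in sham 2 (14.6 to 16.1). These intervals, like all below, come from the ratio of the counts and cover counting error only, since each heart is a single sample. The summed level averaged 977 ± 1337 CPM over the sham hearts (SD, n = 3) and 205 CPM without sham 3. In whole-heart RNA, fewer cells of a type and less RNA per cell cannot be told apart.

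Every member was highest in sham 3, as were 41.2% of the 10385 genes averaging at least 5 CPM, and lowest in sham 2. All 9 were at least 2-fold higher in sham 3 than in both other hearts, as were 1.18% of these genes. At 5-fold or more there were 7 of 9 members, with 0.26% of all genes. The members were chosen on this variation, so nothing is read from these counts. Gm12250, Gm4841 and F830016B08Rik averaged 5 CPM only through sham 3, and the other 6 members did so over sham 1 and sham 2 as well. The median fold of all 9 members was 9.98 for sham 3 over sham 1 and 15.3 for sham 3 over sham 2. All genes had medians of 1.01 and 1.06. The median coefficient of variation over the 3 hearts was 136% for the members and 10.2% for all genes.

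Sham 1 and sham 2 also differed, by much less. All 9 members were higher in sham 1 than in sham 2, as were 61.5% of all genes. The median fold of sham 1 over sham 2 was 1.51 in the members and 1.05 in all genes. The interval of this fold lay above 1 for 8 members, such as Iigp1 at 1.54 (1.37 to 1.72). For F830016B08Rik it was 1.09 (0.713 to 1.66), a difference not detectable at this depth.

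**Figure D2:**
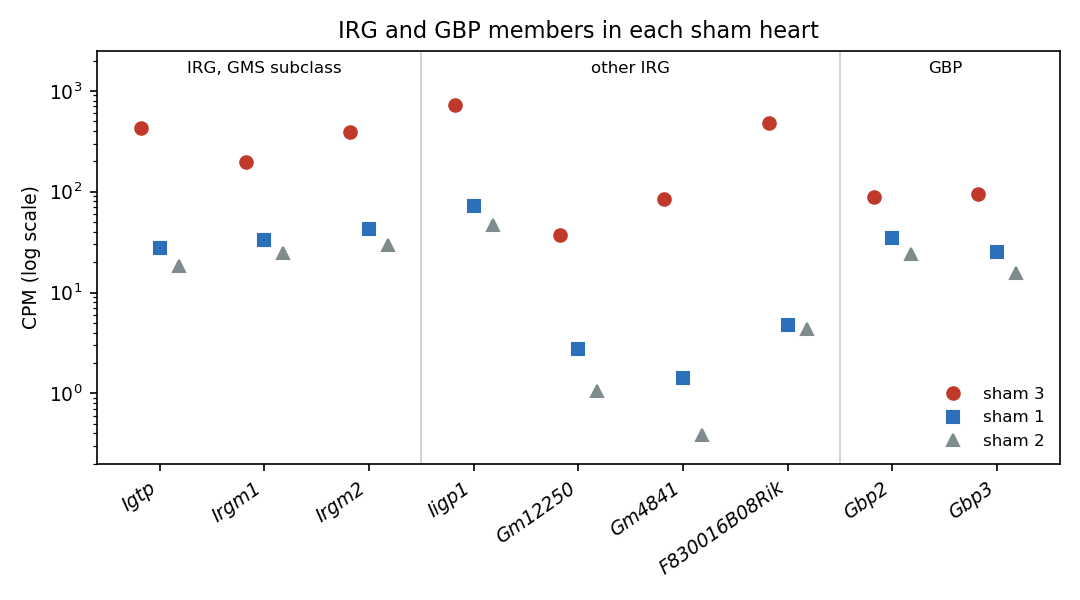
CPM (log scale) of the 9 members in sham 3 (red circles), sham 1 (blue squares) and sham 2 (grey triangles), 1 point per heart. Sham 3 is the highest for every member, by 2.53-fold over the next heart in Gbp2 and by 99.6-fold in F830016B08Rik.

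Among the GMS regulators, Igtp had 5440 counts in sham 3, against 288 in sham 1 and 190 in sham 2, or 429, 27.5 and 18.1 CPM. Sham 3 was thus 15.6-fold over sham 1 (13.9 to 17.7) and 23.7-fold over sham 2 (20.5 to 27.5). Irgm2, the next gene along the chromosome, had 4951, 448 and 308 counts in sham 3, 1 and 2. Its fold was 9.14 over sham 1 (8.30 to 10.1) and 13.3 over sham 2 (11.8 to 15.0). Irgm1, which lies elsewhere on chromosome 11, had 2508 counts in sham 3, against 350 in sham 1 and 256 in sham 2. Its fold of 5.93 over sham 1 (5.30 to 6.65) was the smallest of the 3, and its interval overlapped neither of the others.

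The order of these 3 genes by counts therefore differed between hearts. Igtp had 1.10 counts for each count of Irgm2 in sham 3 (1.06 to 1.14), but 0.643 in sham 1 (0.552 to 0.747) and 0.617 in sham 2 (0.512 to 0.742). Irgm2 had 1.97 counts for each count of Irgm1 in sham 3, 1.28 in sham 1 and 1.20 in sham 2. Sham 1 and sham 2 had overlapping intervals in both ratios, and sham 3 stood outside them.

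Of the other IRG genes, the effector Iigp1 had the most counts of all members in each heart, 9157 in sham 3, 759 in sham 1 and 494 in sham 2. It was 9.98-fold higher in sham 3 than in sham 1 (9.27 to 10.8) and 15.3-fold higher than in sham 2 (14.0 to 16.8), which are the medians of the 9 members. Gm12250, the effector Irgb10, had 470 counts in sham 3, against 29 in sham 1 and 11 in sham 2. Its folds were 13.4 (9.21 to 20.2) over sham 1 and 35.3 (19.6 to 71.3) over sham 2.

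F830016B08Rik and Gm4841 had the largest folds of sham 3 over both other hearts. F830016B08Rik had 6022 counts in sham 3, second among the members, but 50 in sham 1 and 46 in sham 2. Its fold was 99.6 over sham 1 (75.5 to 134) and 108 over sham 2 (81.0 to 148). Gm4841 had 1073 counts in sham 3, against 15 in sham 1 and 4 in sham 2. It was 59.2-fold higher in sham 3 than in sham 1 (35.7 to 106) and 222-fold higher than in sham 2 (86.4 to 815), the wide interval reflecting the 4 counts.

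The GBP members differed least. Gbp2 had 1120 counts in sham 3, against 366 in sham 1 and 254 in sham 2, which is 2.53-fold over sham 1 (2.25 to 2.86) and 3.65-fold over sham 2 (3.18 to 4.19). Gbp3 had 1191, 265 and 164 counts in sham 3, 1 and 2, or 3.72-fold over sham 1 (3.25 to 4.26) and 6.00-fold over sham 2 (5.10 to 7.11). Gbp2 had fewer counts than Gbp3 in sham 3, at a ratio of 0.940 whose interval of 0.866 to 1.02 includes equality. The ratio was 1.38 in sham 1 (1.18 to 1.62) and 1.55 in sham 2 (1.27 to 1.90).

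**Figure D3:**
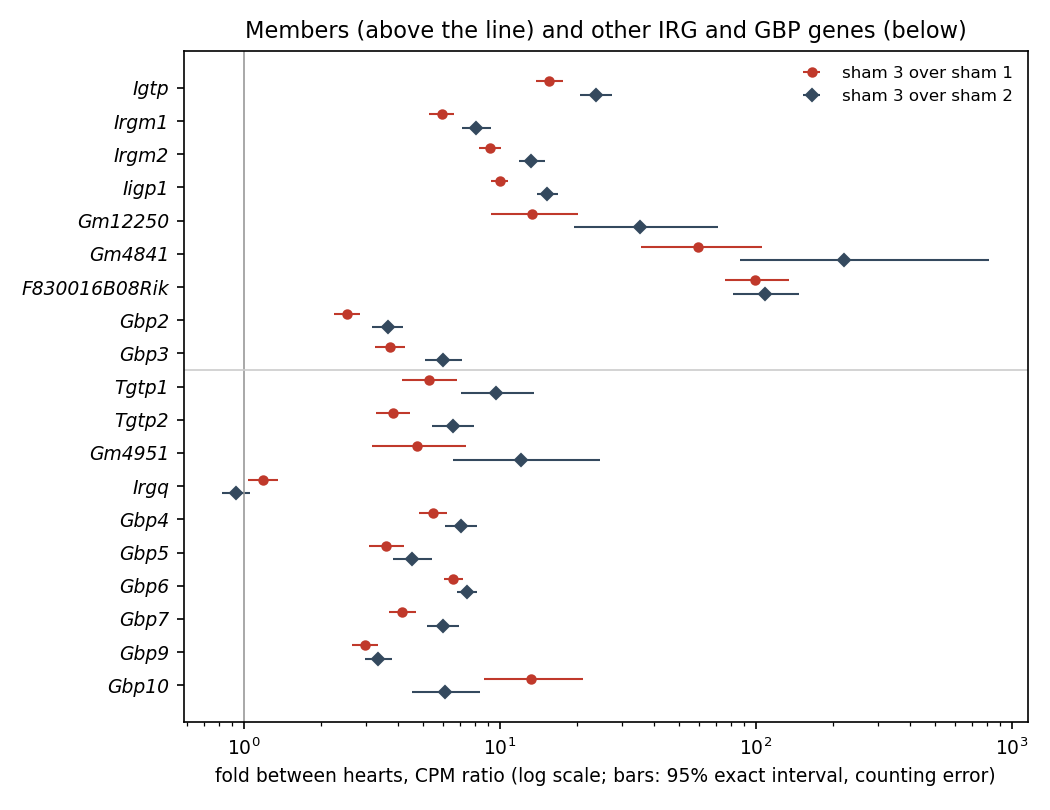
Fold between hearts (CPM ratio, log scale) of sham 3 over sham 1 (red circles) and over sham 2 (dark diamonds), with 95% exact intervals for counting error, for the 9 members (above the line) and the other IRG and GBP genes averaging at least 5 CPM (below). F830016B08Rik and Gm4841 lie farthest right, and Irgq is the gene near 1.

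As shares of the family's counts, some members kept their place and others did not. Of the members' counts, Iigp1 took 28.7% in sham 3, 29.5% in sham 1 and 28.6% in sham 2, with overlapping intervals. F830016B08Rik took 18.9% in sham 3 (exact interval 18.4 to 19.3), 1.95% in sham 1 (1.45 to 2.56) and 2.66% in sham 2 (1.96 to 3.54). Igtp took 17.0% in sham 3, 11.2% in sham 1 and 11.0% in sham 2. In the other direction, Gbp2 took 3.51% in sham 3, 14.2% in sham 1 and 14.7% in sham 2, and Irgm1 took 7.85%, 13.6% and 14.8%. Sham 1 and sham 2, which differ in the family's total, had nearly the same makeup, and for each of the 9 members their intervals overlapped.

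**Figure D4:**
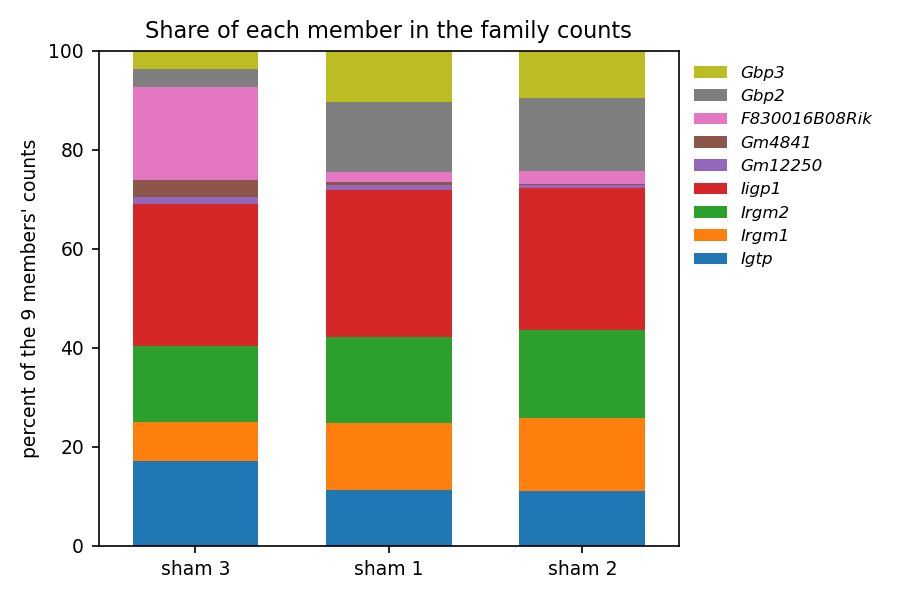
Percent of the summed counts of the 9 members taken by each gene, in sham 3, sham 1 and sham 2 (1 bar per heart, each adding to 100%). The F830016B08Rik band is 18.9% in sham 3 against 1.95% in sham 1 and 2.66% in sham 2, while Iigp1 holds 28.6% to 29.5% in all of them.

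Levels of different genes were compared per kilobase of annotated exon, with GENCODE M21 lengths that may differ from the annotation the authors counted on. In sham 3, Igtp stood at 212 CPM per kilobase, F830016B08Rik at 144, Iigp1 at 124 and Irgm2 at 106, and the other 5 members at 28.8 to 35.1. In sham 1, Gbp2 at 13.9, Igtp at 13.6, Iigp1 at 12.4 and Irgm2 at 11.6 CPM per kilobase were the highest, and F830016B08Rik stood at 1.45 and Gm4841 at 0.504. With the longest coding transcript as the length, which was not available for Gm12250, Iigp1 at 232 CPM per kilobase passed Igtp at 212 in sham 3. With it, Irgm1 also stood at 87.6 in sham 3, and the same 4 genes as before led. In sham 1 that length put Iigp1 first at 23.2 and Irgm1 next at 14.8 CPM per kilobase.

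The other IRG and GBP genes were read from a list that does not contain the members. Of 14 listed, 13 were in the table and 10 averaged at least 5 CPM, and 9 of these 10 were at least 2-fold higher in sham 3 than in both other hearts (background 1.18%). Gm4951 and Gbp10 averaged 5 CPM only through sham 3. Of the 8 that averaged 5 CPM over sham 1 and sham 2 alone, 7 were at least 2-fold higher, against 0.867% of all genes past that filter, which was chosen after the data had been seen. Across all 10 genes, Gm4951 and Gbp10 included, the median fold was 4.46 over sham 1 and 6.33 over sham 2. Gbp6 had 4570 counts in sham 3, against 574 in sham 1 and 507 in sham 2. Gbp4 had 1828, 276 and 214 counts, and Gbp7 had 1631, 324 and 225. Tgtp2 and Tgtp1, effector IRG genes that are near-identical copies, had folds of 3.83 and 5.27 over sham 1.

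The exception was Irgq, an IRG-related gene, with 547 counts in sham 3, against 380 in sham 1 and 485 in sham 2. Its level averaged 41.9 ± 5.14 CPM (SD, n = 3). Gbp10 was the single gene among the 10, besides Irgq, that was lower in sham 1 than in sham 2, with 369 counts in sham 3, against 23 in sham 1 and 50 in sham 2. Irgq, Gbp10 and Tgtp2 were singled out after their values were seen. Gbp2b had 4 counts in sham 3 and 0 in the other hearts, and the testis gene Irgc1 had 0 in each. Gbp11 was not analysed here.

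The rule that chose the members gave no numeric limit. By fold of sham 3 over the higher of the other hearts, the 6 highest IRG and GBP genes were members, with ranks of 1 (F830016B08Rik) to 8 (Irgm2) among 10385 genes. Gbp6 and Gbp10, which are no members, ranked 13 at 6.59-fold and 17 at 6.10-fold, and the members Irgm1, Gbp3 and Gbp2 ranked 19, 44 and 81. These ranks use the variation on which the members were picked. Atlastins, membrane GTPases of the GBP superfamily that shape the endoplasmic reticulum, stayed below 2-fold. Atl2 had 717 counts in sham 3, against 661 in sham 1 and 635 in sham 2, a fold of 0.897 over sham 1 (0.806 to 0.999). The large interferon-inducible GTPase Gvin1 had 270, 63 and 41 counts, and Mx1 and Mx2 were not analysed here.

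In interferon-gamma signalling, the receptor and kinase genes differed less between hearts than Irf1. Interferon-gamma itself (Ifng) had 0 counts in each heart. Of its receptor chains, Ifngr2 had 2664 counts in sham 3, against 2270 in sham 1 and 2191 in sham 2, a fold of 0.971 over sham 1 (0.918 to 1.03). The receptor-bound kinase Jak1 had 2967, 2817 and 2324 counts, a fold of 0.871 over sham 1 (0.827 to 0.918). Irf1, a factor that binds ISRE sites and is named here after its values were seen, had 1228, 247 and 225 counts. Nlrc5, a regulator of MHC class I genes also named after its values were seen, had 432 counts in sham 3, against 123 in sham 1 and 49 in sham 2, folds of 2.91 and 7.29. Of the interferon-inducible chemokines, Cxcl9 had 372, 123 and 57 counts. Cxcl10 had 64, 10 and 0 counts, and Cxcl11 was not analysed here.

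In the type I interferon list the receptor genes were likewise below 2-fold, and 3 of the factors were above it. Ifnar2 had 560 counts in sham 3, against 431 in sham 1 and 384 in sham 2, or 1.08-fold over sham 1 (0.946 to 1.22). Irf7, a factor that drives interferon production, had 2390, 180 and 137 counts, and Stat2 had 1235, 183 and 184. Of 8 measured genes, 4 were at least 2-fold higher in sham 3 than in both other hearts (Irf7, Stat2, Irf9 and Usp18). The share among all genes averaging at least 5 CPM was 1.18%. Usp18 averaged 5 CPM only through sham 3, with 4.96 CPM over sham 1 and sham 2. Ifnb1 was not analysed here.

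All 17 antiviral targets of the fixed list were at least 2-fold higher in sham 3 than in both other hearts (background 1.18%). Their median fold was 3.60 over sham 1 and 5.13 over sham 2. Among them, Isg15, Oas1a and Zbp1 averaged 5 CPM only through sham 3. Over sham 1 and sham 2 they averaged 3.67, 3.01 and 2.29 CPM. Rsad2, which makes a chain-terminating nucleotide, had 1165 counts in sham 3, against 347 in sham 1 and 209 in sham 2. Bst2, which tethers budding virus, had 1121, 268 and 132 counts. The pattern of these targets across the sham hearts was known when the lists were chosen. The member medians of 9.98 and 15.3 were higher than those of the targets. The members were chosen on this variation, so nothing is read from that difference. Gm12250, Gm4841 and F830016B08Rik also averaged 5 CPM only through sham 3. Gbp2 at 2.53 over sham 1 lay near the lowest fold of the targets, 2.36.

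Across 8764 other genes averaging at least 10 CPM, the 10 with profiles closest to the member median were found by Euclidean distance. Symbols of the form Gm plus digits or ending in Rik were left out, so such genes could not appear among them. The distance was taken over the 3 hearts, on log2(CPM + 0.5) centred per gene. Those reported here are Ifit3b, Irf7, Ifit3, Ifit1, Isg15, Usp18, Tgtp1, Gbp6 and Uba7, at distances of 0.118 to 0.753 log2 units. Ifit1, Ifit3 and Ifit3b belong to a family of antiviral RNA-binding proteins, Isg15 is a ubiquitin-like modifier, Uba7 its activating enzyme and Usp18 the protease that removes it. Ifit3b, Ifit1, Isg15, Usp18 and Tgtp1 averaged 10 CPM only through sham 3, with 3.67 to 9.73 CPM over sham 1 and sham 2. The members were chosen on this variation, so nothing is read from which genes lie near their median. With 3 hearts such a distance rests on few points. Among the members, Iigp1 lay nearest to that median at 0.0171, and F830016B08Rik at 2.43 and Gm4841 at 2.01 lay farthest.

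Most genes whose products act with IRG and GBP proteins stayed below 2-fold, as did most genes of any kind. Of all genes averaging at least 5 CPM, 1.18% were at least 2-fold higher in sham 3 than in both other hearts. A count of 0 in a short list therefore does not set it apart. The ATG8 conjugation machinery, which directs these GTPases to the vacuole, had 10 measured genes, and 0 of them were at least 2-fold higher in sham 3. Their folds over the higher of the other hearts were 0.548 to 1.10. Map1lc3a had 5807 counts in sham 3, against 5256 in sham 1 and 5550 in sham 2, and Gabarap had 3268, 3491 and 2999. The median fold of the list was 0.931 over sham 1 and 0.989 over sham 2. Of 5 prenylation genes, which attach and process lipid anchors such as that of Gbp2, 0 reached 2-fold, and Fnta had 832, 831 and 752 counts in sham 3, 1 and 2. Among ubiquitin tag and adaptor genes, Sqstm1 had 6445, 5827 and 4718 counts, while the ubiquitin ligase Trim21 had 294, 72 and 67. Of the 6 inflammasome genes, 4 were highest in sham 3 and 2 in sham 1. Among them, the GBP-linked pore protein Gsdmd had 152 counts in sham 3, against 76 in sham 1 and 86 in sham 2. That is 1.65-fold over sham 1 (1.25 to 2.21).

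**Figure D5:**
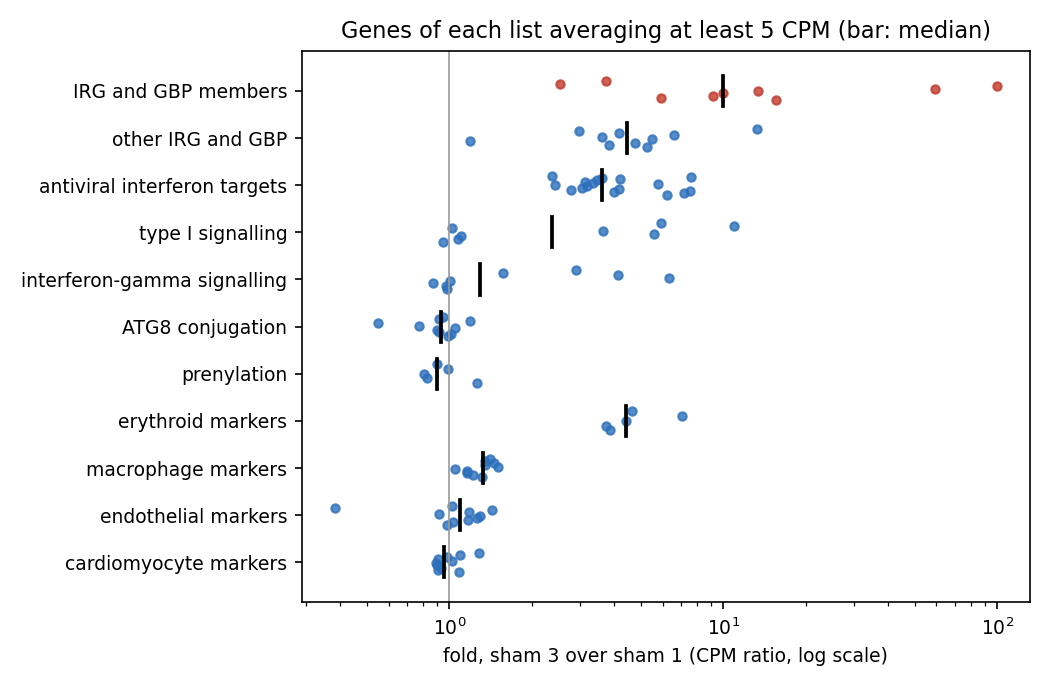
Fold of sham 3 over sham 1 (CPM ratio, log scale) of each gene averaging at least 5 CPM in the fixed lists, with the members in red, the other lists in blue and the list median as a black bar. Members, other IRG and GBP genes, antiviral targets and erythroid markers lie mostly to the right of 1, and the ATG8 conjugation, prenylation and cardiomyocyte lists lie around 1.

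Markers of other cells also differed between the hearts. The 7 erythroid markers summed to 486 CPM in sham 3, 111 in sham 1 and 83.2 in sham 2. All 5 with at least 1 CPM were highest in sham 3 (background 41.2%). These 5 also averaged at least 5 CPM and were at least 2-fold higher in sham 3 than in both other hearts (background 1.18%). Alas2 averaged 5 CPM only through sham 3, with 3.91 CPM over sham 1 and sham 2. Of the erythroid markers below 1 CPM, Slc4a1 held 6, 0 and 5 counts and Ahsp held 2, 0 and 0 in sham 3, 1 and 2. All 12 macrophage markers were highest in sham 3, as were 41.2% of all genes averaging at least 5 CPM. Their levels summed to 801, 625 and 501 CPM in sham 3, 1 and 2. Of the 10 macrophage markers averaging at least 5 CPM, 0 were at least 2-fold higher in sham 3 than in both other hearts. The lowest of their folds over the higher of the other hearts was 1.00. Fcgr1 and Ccr2 averaged less than 5 CPM, at 4.91 and 4.38. By the same measure Fcgr1 was 3.31-fold higher in sham 3 and Ccr2 1.43-fold. The 10 endothelial markers summed to 2176, 2032 and 1826 CPM, and the 10 fibroblast markers to 4506, 4121 and 2266 CPM. The 13 measured T and NK cell markers held 98 counts in all in sham 3, 63 in sham 1 and 23 in sham 2, and 1 of them, Cd4, averaged 1 CPM or more. The 7 atrial markers summed to 547 CPM in sham 3, 2694 in sham 1 and 91.9 in sham 2. The 5 B cell markers held 40, 38 and 20 counts and the 6 neutrophil markers 79, 109 and 105 in sham 3, 1 and 2, and the 4 measured lung markers held 2, 0 and 3. The part of these cells in the member levels was not tested.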

How the data were processed

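Whole-heart RNA was sequenced in 6 libraries. The authors deposited raw counts in a single table with a row per gene symbol. Trimmomatic, HISAT2, HTSeq, DESeq and build mm9 are named in the submitters' processing notes, without settings, annotation or strandedness. Each column was tied to its heart by its name. The members, gene lists and measures were chosen with earlier results of these data known.

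CPM is the count divided by the column total, times 1000000. Column totals were 10474487 to 12669724 counts in sham. Folds are ratios of CPM between single hearts with exact conditional binomial (Clopper-Pearson) intervals from scipy 1.17.1. PCR copies are not independent molecules, so intervals cover counting error only. No test was made, because the hearts form a single group and the CKD row labels could not be used. Genes named were all members, up to 3 genes with the highest mean CPM per list and any at 0, and the 10 nearest profiles. Others are marked as named later or belong to a count of 5 or fewer. As alternatives, edgeR 4.0.16 (TMM) and DESeq2 1.42.0 scaling, other filters and folds were tried. Code was tested on simulated data. Promoters are RefSeq's, on GRCm38.p6. Results of a gene that these rules would name are not reported here.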

Additional observations from a re-analysis of the deposited data

How the results depend on the processing

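No paired analysis was possible because no result comes from a test between groups that share replicate numbers. All 72 alternatives for the fold of single members (TMM, DESeq2 size factors, totals without the 10 highest rows, 0.5 counts added) stayed within the counting interval. All 60 for mean levels stayed within 1 SD. With 3 hearts, dropping any of them cannot shift a mean beyond that, so this says nothing about stability. The summed member level was 205 to 1383 CPM when 1 heart was left out, and 205 CPM without sham 3.

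For sham 3 over sham 2, the member median was 14.2 with TMM and 14.1 with DESeq2 size factors, against 15.3. The all-gene median was 0.986 and 0.978, 1.05 without the 10 highest rows, and 1.08 with genes at 1 or more counts in each heart or at 1 CPM. TMM and DESeq2 thus moved it by -0.11 and -0.12 on the log2 scale. Relative to it, the member median was 14.4 under each scaling. For sham 3 over sham 1, the all-gene median was 1.00 with TMM and 0.999 with DESeq2.

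The number of genes at least 2-fold higher in sham 3, 123 (1.18%), was 397 (2.85%) with genes at 1 or more counts in each heart, 232 (1.86%) at 1 CPM, 302 (2.91%) at a fold of 1.5 and 66 (0.636%) at a fold of 3. All 9 members passed in each of these except at a fold of 3, where 8 did. With genes at 5 CPM over sham 1 and sham 2, a filter added after the data had been seen, 89 genes and 6 members passed. Allowing 1 mismatch, the ISRE core was in 35.4% of all promoter windows. Counts of 4 to 50 in sham 1 and sham 2 limit the folds of Gm4841, Gm12250 and F830016B08Rik.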
